A study of Arabidopsis thaliana with 15 samples.

Results

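The genes described here are 10 loci of Arabidopsis thaliana that make, sense or answer abscisic acid, the hormone of drought and seed dormancy. They were taken by locus number from the count files: NCED3 (AT3G14440), ABI1 (AT4G26080), ABI2 (AT5G57050), HAB1 (AT1G72770), ABI5 (AT2G36270), ABF3 (AT4G34000), RD26 (AT4G27410), RD29B (AT5G52300), RAB18 (AT5G66400) and RD22 (AT5G25610). They are 10 of the 33602 loci counted, and 10 of 10 passed the filter on low counts that left 20477 loci for testing. The 15 mRNA libraries came from whole 3-week-old seedlings of the Col-0 ecotype, kept on diluted MS medium under a photoperiod of 8 h light followed by 16 h dark and given no treatment, so no group had been dried or supplied with the hormone. There were 3 biological repeats each of the lhp1 single mutant, the ebs shl double mutant, the ebs shl lhp1 triple mutant, emf1 and the wild type (WT), and the labels name no alleles. LHP1, EBS and SHL are readers of histone methylation and EMF1 is a plant Polycomb protein. RNeasy Plus Mini columns served for the RNA of lhp1, ebs shl and WT, and miRNeasy Micro columns for that of ebs shl lhp1 and emf1. Kit and genotype therefore cannot be told apart where ebs shl lhp1 or emf1 is set against WT, and the comparisons of ebs shl lhp1 with emf1 and of ebs shl with lhp1 were made within a kit.

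As background, abscisic acid is made from carotenoids, and cleavage of the carotenoid precursor by NCED enzymes sets the rate of its synthesis under drought. Receptors of the PYR/PYL family bind the hormone and then block clade A protein phosphatases such as ABI1, ABI2 and HAB1. This frees SnRK2 kinases, which phosphorylate bZIP transcription factors such as ABI5 in seeds and young seedlings and ABF3 in vegetative tissue. The bZIP factors bind promoter elements with the core ACGTG, known as ABRE, and raise target genes such as RD29B and the dehydrin gene RAB18. RD26 encodes a NAC transcription factor induced by drought, and RD22 encodes a BURP-domain protein long used as a marker of the slower drought response.

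The bZIP factors are known to bind the ABRE core in targets such as RD29B and RAB18, which need not hold for all 10 genes. The 250 bases before the start of each gene were read from the RefSeq annotation of the TAIR10.1 assembly. The counts were made on TAIR10, per the submitters' processing notes, and genes were joined by locus number. ACGTG was searched on both strands, and overlapping matches, as in the palindrome CACGTG, were merged into 1 place. The windows of 7 of 10 genes held at least 1 place, with 4 in ABI5, 4 in RD29B, 3 in RAB18 and 1 each in HAB1, ABF3, RD26 and RD22, and none was found in NCED3, ABI1 or ABI2. Among all 27437 gene starts 22.9% of windows held the core and 4.99% held it at 2 or more places. The drought and cold element core CCGAC was found in RD26 and RD29B, against 12% of all windows. A match is a run of letters and not a measured binding site. The windows below are those of RD29B, ABI5, RD26 and RD22, shown as examples of windows that hold the core and no exon of another gene, with many places in ABI5 and RD29B and 1 place in RD26 and RD22, and each is written in the direction of transcription with the ABRE core in capitals. They lie as follows: RD29B at chr5:21236771-21237020 on the plus strand, ABI5 at chr2:15207637-15207886 on the minus strand, RD26 at chr4:13709171-13709420 on the minus strand and RD22 at chr5:8916857-8917106 on the minus strand.
RD29B: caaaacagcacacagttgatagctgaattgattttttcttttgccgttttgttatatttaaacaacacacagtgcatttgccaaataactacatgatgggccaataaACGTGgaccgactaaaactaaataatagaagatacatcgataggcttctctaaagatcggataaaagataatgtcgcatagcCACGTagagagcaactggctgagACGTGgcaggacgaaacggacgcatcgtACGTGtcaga
ABI5: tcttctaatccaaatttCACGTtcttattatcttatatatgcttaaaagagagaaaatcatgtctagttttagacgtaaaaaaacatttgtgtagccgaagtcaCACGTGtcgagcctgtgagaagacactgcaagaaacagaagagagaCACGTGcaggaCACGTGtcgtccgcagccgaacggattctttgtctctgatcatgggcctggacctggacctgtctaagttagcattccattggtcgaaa
RD26: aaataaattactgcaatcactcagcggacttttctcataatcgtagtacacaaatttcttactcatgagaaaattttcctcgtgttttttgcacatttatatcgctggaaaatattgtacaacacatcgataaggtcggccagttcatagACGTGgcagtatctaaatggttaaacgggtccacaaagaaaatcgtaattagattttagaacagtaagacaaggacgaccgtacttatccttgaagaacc
RD22: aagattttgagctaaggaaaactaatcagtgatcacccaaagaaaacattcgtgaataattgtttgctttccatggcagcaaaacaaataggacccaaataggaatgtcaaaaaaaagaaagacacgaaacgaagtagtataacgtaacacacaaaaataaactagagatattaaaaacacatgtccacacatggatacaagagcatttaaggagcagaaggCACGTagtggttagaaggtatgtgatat
The RAB18 window overlaps an exon of its neighbour AT5G66410, so its 3 places alone are shown, each with 10 bases to either side. They lie on the minus strand at chr5:26519596-26519620, chr5:26519544-26519568 and chr5:26519451-26519475, and their cores begin 163, 111 and 18 bases before the gene start.
RAB18 far: acgacgatgtACGTGtgtatgaaaa
RAB18 middle: gaggagcattACGTGtcctgttagc
RAB18 near: ttgatatgaaCACGTacttggtatc

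Library totals ran from 11730989 to 16247262 counts, so that a single count was worth 0.0558 to 0.0949 CPM after TMM scaling, where CPM are counts scaled to library size. Levels below are in these units. The mutated genes were checked against the labels. LHP1 was at 10.08 to 10.8 CPM in lhp1, against 18.6 to 20.8 CPM in WT, but at 19.3 to 23.4 CPM in the libraries labelled ebs shl lhp1. EBS was at 1.67 to 3.37 CPM in the libraries labelled ebs shl and 1.99 to 2.51 CPM in those labelled ebs shl lhp1, against 24.1 to 27.4 CPM in WT, whereas SHL was at 204 to 225 CPM and 160 to 222 CPM in them, against 38.1 to 43.6 CPM in WT. Transcript level cannot check an allele that leaves the transcript in place, so these 2 are called the ebs shl-labelled genotype and the ebs shl lhp1-labelled genotype below. Transcripts of EMF1 were at 21.8 to 23.9 CPM in emf1, against 27.5 to 28.7 CPM in WT. EMF1 was higher than WT in the other 3 mutants, each passing the edgeR test described below. Its log2 fold change was 0.72 in lhp1, 2.08 in the ebs shl-labelled genotype and 1.47 in the ebs shl lhp1-labelled genotype, against -0.30 in emf1. The cause was not tested. The first principal component of all tested genes held 69.3% of the variance.

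A gene was called changed where the quasi-likelihood test of edgeR gave a p under 0.05 after adjustment over the 20477 loci by the Benjamini-Hochberg method (BH below). In lhp1 against WT, RAB18 rose and RD22 fell, 2 of 10 members, beside 1.31% of all tested loci (0.772% higher and 0.542% lower). In the ebs shl-labelled genotype RAB18 rose while ABF3 and RD22 fell, 3 of 10 members, beside 7.83% of all loci called (5.31% higher and 2.52% lower). In the ebs shl lhp1-labelled genotype ABI1, ABI5, RD26, RD29B and RAB18 rose and ABI2, ABF3 and RD22 fell, 8 of 10 members, beside 70.3% of all loci called (34.6% higher and 35.7% lower), so this share is near that of the whole transcriptome. With upper-quartile scaling or library totals in place of TMM, 4 of those members were higher and 4 lower. In emf1 RD26 rose and ABI2, ABF3 and RAB18 fell, 4 of 10 members, beside 64.6% of all loci (30.7% higher and 33.9% lower), which is also no excess, and with library totals 1 was higher and 7 lower. These last 2 are called the strongly changed genotypes below. The ebs shl lhp1-labelled genotype exceeded emf1 in ABI1, ABI5, RD29B and RAB18 and was lower in RD22, 5 of 10 members beside 44.1% of all loci (23.6% higher and 20.5% lower), and 4 higher and 0 lower with library totals. The ebs shl-labelled genotype was lower than lhp1 in ABF3, 1 of 10 members beside 5.06% of all loci (3.67% higher and 1.39% lower). The 4 comparisons with WT share its 3 libraries. The median log2 fold change of the 10 genes was -0.06 in lhp1, -0.09 in the ebs shl-labelled genotype, 0.14 in the ebs shl lhp1-labelled genotype and -0.24 in emf1, where the median of all tested loci was 0.00, 0.00, -0.02 and -0.03 in the same order. A whole seedling is a mixture of cells, so fewer cells of a type and less transcript per cell cannot be told apart in any of these values.

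**Figure D1:**
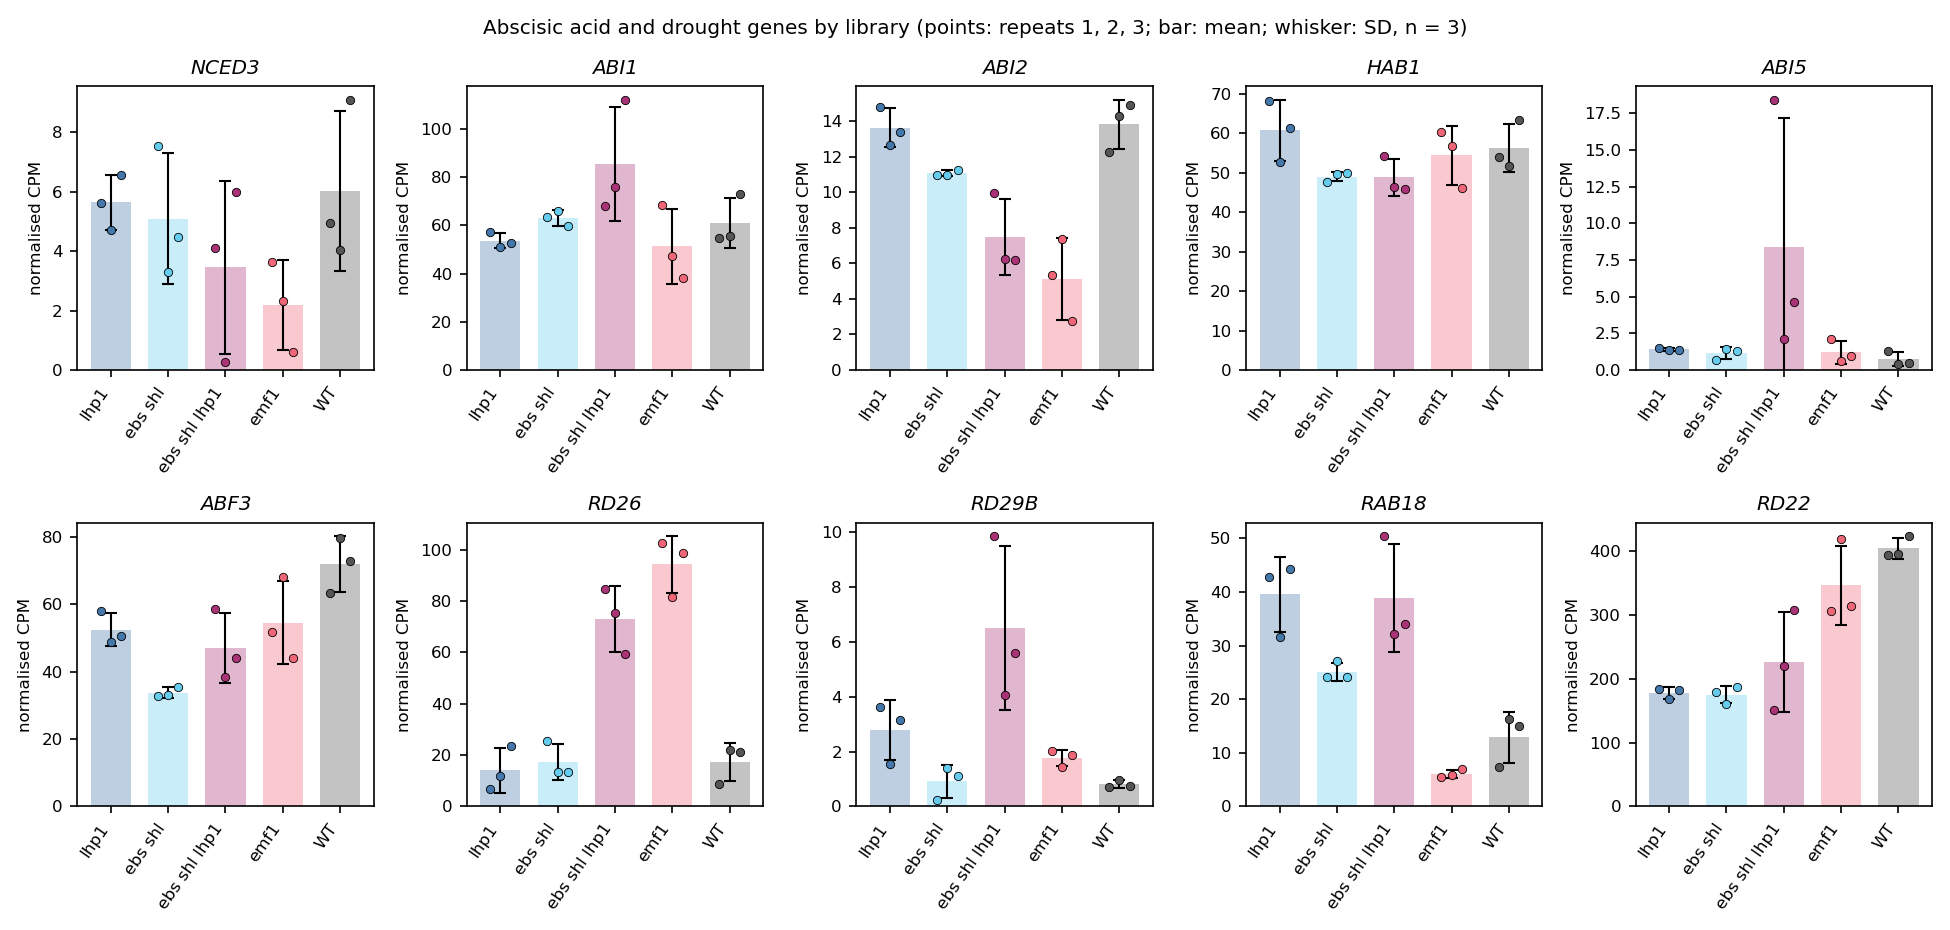
Normalised CPM of the 10 genes in each library, with 1 panel per gene; points are biological repeats, bars are means and whiskers are SD (n = 3). RAB18 stands at 24.1 CPM or more in every lhp1, ebs shl-labelled genotype and ebs shl lhp1-labelled genotype library and at 6.94 CPM or less in emf1, against 7.44 to 16.2 CPM in WT, and RD26 is high in the ebs shl lhp1-labelled genotype and emf1 alone among the 5 genotypes.

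**Figure D2:**
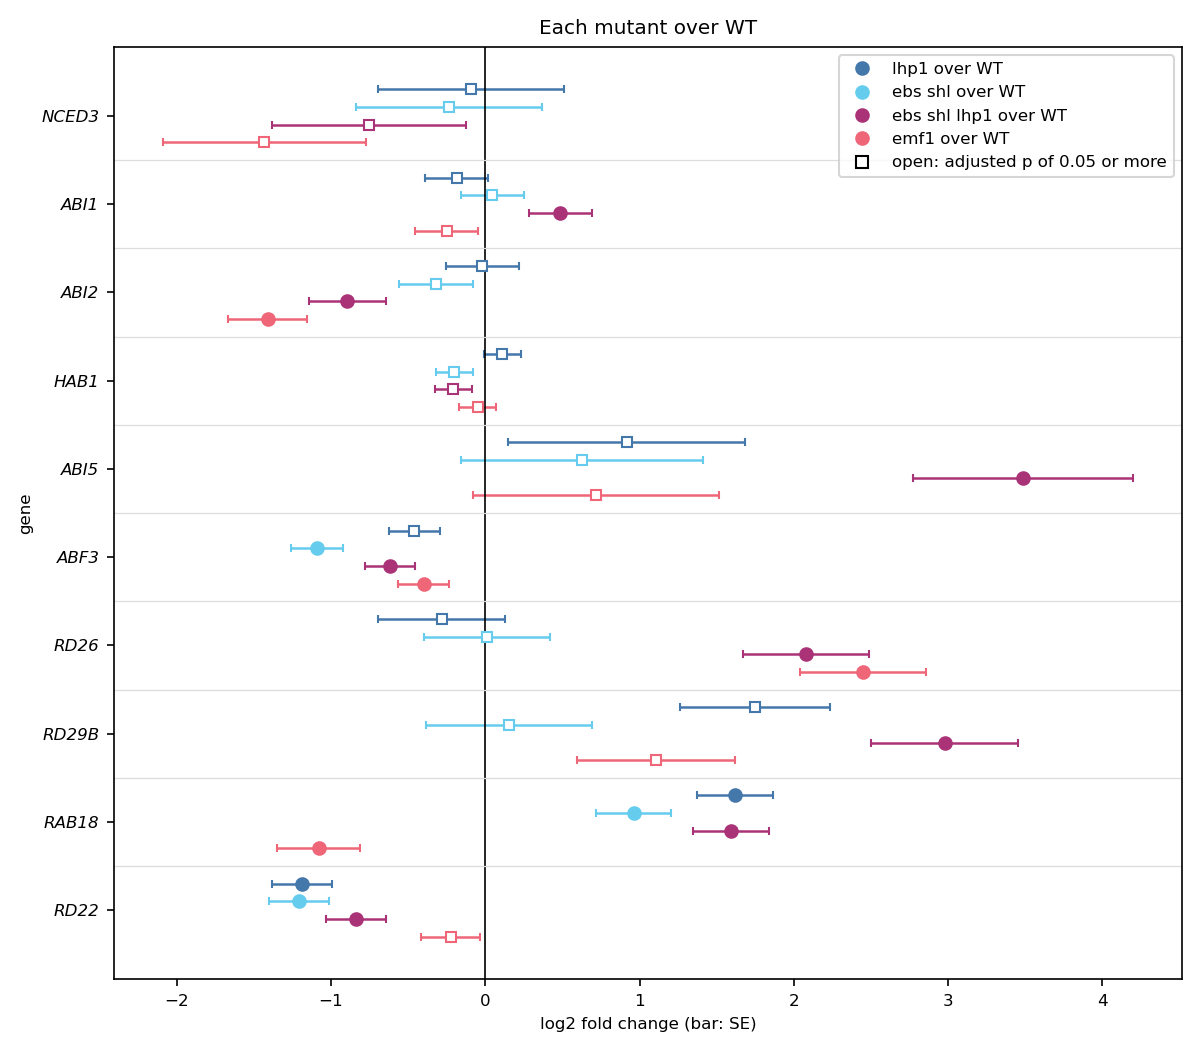
Log2 fold change of each gene in lhp1, the double mutant labelled ebs shl, the triple mutant labelled ebs shl lhp1 and emf1 over WT, with SE bars; filled circles passed the adjusted p threshold of 0.05 and open squares did not. RAB18 lies right of 0 in 3 genotypes and left of 0 in emf1, and RD22 is near -1 in lhp1 and the ebs shl-labelled genotype.

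NCED3, the biosynthesis gene, passed the test in none of the 6 comparisons. Its levels in repeats 1, 2 and 3 were 5.64, 4.73 and 6.58 CPM in lhp1, 7.54, 3.29 and 4.46 CPM in the ebs shl-labelled genotype, 4.09, 0.285 and 6.01 CPM in the ebs shl lhp1-labelled genotype and 3.63, 2.33 and 0.623 CPM in emf1, against 4.96, 4.03 and 9.11 CPM in WT. Every emf1 library lay below every WT library, while the other genotypes overlapped WT, and the ebs shl lhp1-labelled genotype spread from the lowest value of all 15 libraries into the WT range. The log2 fold change in emf1 was -1.43 ± 0.66 (SE, n = 3 libraries each; BH-adjusted p = 0.071 by edgeR). This passed the threshold without emf1 repeat 1 (adjusted p = 0.044), with upper-quartile scaling (0.046) and with library totals alone (0.031).

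Among the 3 phosphatase genes, ABI2 fell in both strongly changed genotypes. It was at 9.96, 6.26 and 6.21 CPM in the ebs shl lhp1-labelled genotype and 5.33, 7.36 and 2.76 CPM in emf1, against 12.3, 14.3 and 14.95 CPM in WT. The lhp1 values of 14.8, 12.7 and 13.4 CPM overlapped WT, and those of the ebs shl-labelled genotype, between 10.97 and 11.3 CPM, lay just below it. No library of the ebs shl lhp1-labelled genotype or emf1 reached the lowest WT library. ABI2 fell with a log2 fold change of -0.89 ± 0.25 in the ebs shl lhp1-labelled genotype (SE, BH-adjusted p = 0.0054 by edgeR) and -1.41 ± 0.26 in emf1 (adjusted p = 0.00028), and both calls held in every alternative fit. In the ebs shl-labelled genotype it was -0.32 ± 0.24 (adjusted p = 0.53).

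ABI1, a close homologue of ABI2, did not move with it. It was at 68.1, 75.9 and 112 CPM in the ebs shl lhp1-labelled genotype, 68.4, 47.2 and 38.2 CPM in emf1, 57.3, 51.0 and 52.8 CPM in lhp1 and 63.6, 65.9 and 59.6 CPM in the ebs shl-labelled genotype, against 54.9, 55.4 and 72.9 CPM in WT. Repeat 3 of the ebs shl lhp1-labelled genotype stood apart at the top and the groups overlapped. The rise in the ebs shl lhp1-labelled genotype, log2 0.49 ± 0.20 over WT (BH-adjusted p = 0.045 by edgeR), was lost without repeat 3 of that genotype (adjusted p = 0.28), without WT repeat 1 (0.13) or WT repeat 2 (0.12), with upper-quartile scaling (0.18) and with library totals (0.23). Over emf1 it was 0.74 ± 0.21 (adjusted p = 0.0098), and it was lost without the same repeat 3 (0.057). HAB1 averaged 60.7 ± 7.78 CPM in lhp1, 49.0 ± 1.23 CPM in the ebs shl-labelled genotype, 48.8 ± 4.65 CPM in the ebs shl lhp1-labelled genotype and 54.3 ± 7.44 CPM in emf1, against 56.3 ± 6.08 CPM in WT (SD, n = 3). It passed the test in none of the 6 comparisons, but it was called lower in the ebs shl lhp1-labelled genotype with upper-quartile scaling (adjusted p = 0.0097) and with library totals (0.0056), and in emf1 with library totals (0.010). ABI1 overlaps an opposite-strand gene, also tested, by 22 exon bases, and the strand setting of the counting is not given in the sources used here.

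The seed bZIP gene ABI5 was called in the ebs shl lhp1-labelled genotype alone among the 4 mutants, where it rose. It was at 18.4, 2.09 and 4.62 CPM there and at 2.09, 0.583 and 0.978 CPM in emf1, against 1.27, 0.428 and 0.503 CPM in WT. The levels were 1.48, 1.37 and 1.34 CPM in lhp1 and 0.691, 1.46 and 1.28 CPM in the ebs shl-labelled genotype. Repeat 1 of the ebs shl lhp1-labelled genotype was far above the others, and the WT values rest on 36 counts over 3 libraries. ABI5 exceeded WT by 3.49 ± 0.71 on the log2 scale (BH-adjusted p = 0.00061 by edgeR), by 2.21 without that repeat 1 (adjusted p = 0.0028) and by 4.14 without WT repeat 1 (0.0012). Over emf1, which shares the RNA kit, it was 2.77 ± 0.69 (adjusted p = 0.0051), 1.42 without that repeat 1 (adjusted p = 0.048) and 3.42 without emf1 repeat 1 (0.0062). In lhp1 the log2 fold change of 0.92 ± 0.77 did not pass (adjusted p = 0.76), nor did 0.63 ± 0.78 in the ebs shl-labelled genotype (0.74) or 0.72 ± 0.80 in emf1 (0.45). The ABI5 window shown above held 4 ABRE cores, 3 of them within CACGTG.

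ABF3, the bZIP gene of vegetative tissue, was lower than WT in 3 of 4 mutants. It was at 32.8, 33.0 and 35.6 CPM in the ebs shl-labelled genotype, 58.5, 38.3 and 44.0 CPM in the ebs shl lhp1-labelled genotype and 51.7, 68.0 and 43.9 CPM in emf1, against 63.4, 79.8 and 72.9 CPM in WT. The lhp1 values, 57.9, 48.7 and 50.5 CPM, also lay below every WT library, and only emf1 overlapped WT. ABF3 fell, with a log2 fold change of -1.09 ± 0.17 in the ebs shl-labelled genotype (BH-adjusted p = 0.00081 by edgeR) and -0.62 ± 0.16 in the ebs shl lhp1-labelled genotype (adjusted p = 0.0041). In emf1 it was -0.40 ± 0.16 (adjusted p = 0.045), and it missed the threshold without WT repeat 2 (0.23), WT repeat 3 (0.093), emf1 repeat 1 (0.13) or emf1 repeat 3 (0.21). In lhp1 it was -0.46 ± 0.16 (adjusted p = 0.28). The ebs shl-labelled genotype differed from lhp1 by -0.63 ± 0.17 (adjusted p = 0.042), which no longer passed when any 1 of the 6 libraries was left out (0.072 to 0.16). ABF3 overlaps another tested gene, on the other strand, by 24 exon bases.

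RD26, the drought-induced NAC gene, separated the strongly changed genotypes from the rest. It was at 84.6, 75.3 and 59.4 CPM in the ebs shl lhp1-labelled genotype and 102, 81.7 and 98.7 CPM in emf1, against 8.58, 22.1 and 21.2 CPM in WT. The lhp1 values of 6.75, 11.8 and 23.7 CPM and those of the ebs shl-labelled genotype, 25.6, 13.4 and 13.3 CPM, overlapped WT and each other. The lowest library of the 2 strongly changed genotypes thus exceeded the highest of the other 9 libraries. RD26 rose with a log2 fold change of 2.08 ± 0.41 in the ebs shl lhp1-labelled genotype (BH-adjusted p = 0.00043 by edgeR) and 2.45 ± 0.41 in emf1 (adjusted p = 0.00015), and both calls held in every alternative fit. Between these 2 genotypes it was -0.37 ± 0.38 (adjusted p = 0.46). In lhp1 it was -0.28 ± 0.41 (adjusted p = 0.88) and in the ebs shl-labelled genotype 0.01 ± 0.41 (0.99).

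RAB18, the dehydrin gene, rose in 3 mutants and fell in the fourth. It was at 42.7, 31.6 and 44.3 CPM in lhp1, 24.1, 27.1 and 24.2 CPM in the ebs shl-labelled genotype, 50.4, 32.2 and 34.1 CPM in the ebs shl lhp1-labelled genotype and 5.48, 5.90 and 6.94 CPM in emf1, against 7.44, 16.2 and 15.02 CPM in WT. In order of level, lhp1 and the ebs shl lhp1-labelled genotype overlapped at the top, the ebs shl-labelled genotype lay below every library of both, then came WT, and emf1 was lowest, with no overlap between the last 3. On the log2 scale the fold change was 1.62 ± 0.25 in lhp1 (BH-adjusted p = 0.0035 by edgeR), 1.59 ± 0.25 in the ebs shl lhp1-labelled genotype (6e-05) and -1.08 ± 0.27 in emf1 (0.0029). These 3 calls held in every alternative fit. The rise of 0.96 ± 0.25 in the ebs shl-labelled genotype (adjusted p = 0.028) missed the threshold without WT repeat 1 (0.066) and without repeat 1 (0.063), 2 (0.092) or 3 (0.070) of that genotype.

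The ebs shl lhp1-labelled genotype exceeded emf1 in RAB18 by 2.67 ± 0.27 on the log2 scale, a 6.37-fold difference (BH-adjusted p = 6.2e-06 by edgeR). RAB18 thus rose in one of the strongly changed genotypes and fell in the other, whereas RD26 rose in both. The ebs shl-labelled genotype differed from lhp1 by -0.66 ± 0.24 (adjusted p = 0.14). RAB18 shares 11 exon bases with the opposite-strand gene AT5G66410. Its window holds 3 ABRE cores, 1 of them followed by TC as in the middle stretch shown above.

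RD29B, the other ABRE-driven target, was low everywhere, and it rose in the ebs shl lhp1-labelled genotype. It was at 9.86, 4.08 and 5.61 CPM there, 3.63, 1.56 and 3.17 CPM in lhp1, 0.251, 1.39 and 1.12 CPM in the ebs shl-labelled genotype and 2.01, 1.46 and 1.87 CPM in emf1, against 0.725, 0.977 and 0.754 CPM in WT. Every library of lhp1, the ebs shl lhp1-labelled genotype and emf1 exceeded every WT library, and the ebs shl-labelled genotype overlapped WT. The WT values rest on 40 counts. The log2 fold change in the ebs shl lhp1-labelled genotype was 2.98 ± 0.48 (BH-adjusted p = 8e-05 by edgeR), and over emf1 it was 1.87 ± 0.45 (adjusted p = 0.0039), and both calls held in every alternative fit. In lhp1 it was 1.75 ± 0.49 (adjusted p = 0.13, and 0.024 with DESeq2) and in emf1 1.11 ± 0.51 (0.072, and 0.049 with DESeq2). The ebs shl-labelled genotype differed from lhp1 by -1.60 ± 0.48 (0.077, and 0.022 with DESeq2).

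RD22 fell in lhp1, the ebs shl-labelled genotype and the ebs shl lhp1-labelled genotype, and was not called in emf1. It was at 184, 168 and 182 CPM in lhp1, 179, 160 and 187 CPM in the ebs shl-labelled genotype, 151, 220 and 308 CPM in the ebs shl lhp1-labelled genotype and 306, 418 and 314 CPM in emf1, against 395, 396 and 424 CPM in WT. The lhp1 and ebs shl-labelled genotype libraries were tightly grouped below WT, the ebs shl lhp1-labelled genotype spread widely below it, and emf1 overlapped WT. Its log2 fold change was -1.19 ± 0.19 in lhp1 (BH-adjusted p = 0.0059 by edgeR), -1.21 ± 0.19 in the ebs shl-labelled genotype (0.0013) and -0.84 ± 0.19 in the ebs shl lhp1-labelled genotype (0.0015). These 3 calls held in every alternative fit. In emf1 it was -0.22 ± 0.19 (adjusted p = 0.32). The ebs shl-labelled genotype and lhp1 differed by -0.02 ± 0.19 (adjusted p = 0.97). The ebs shl lhp1-labelled genotype differed from emf1 by -0.61 ± 0.19 (adjusted p = 0.019), with overlap, and the call was lost without emf1 repeat 2 (0.086) and with library totals (0.062).

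**Figure D3:**
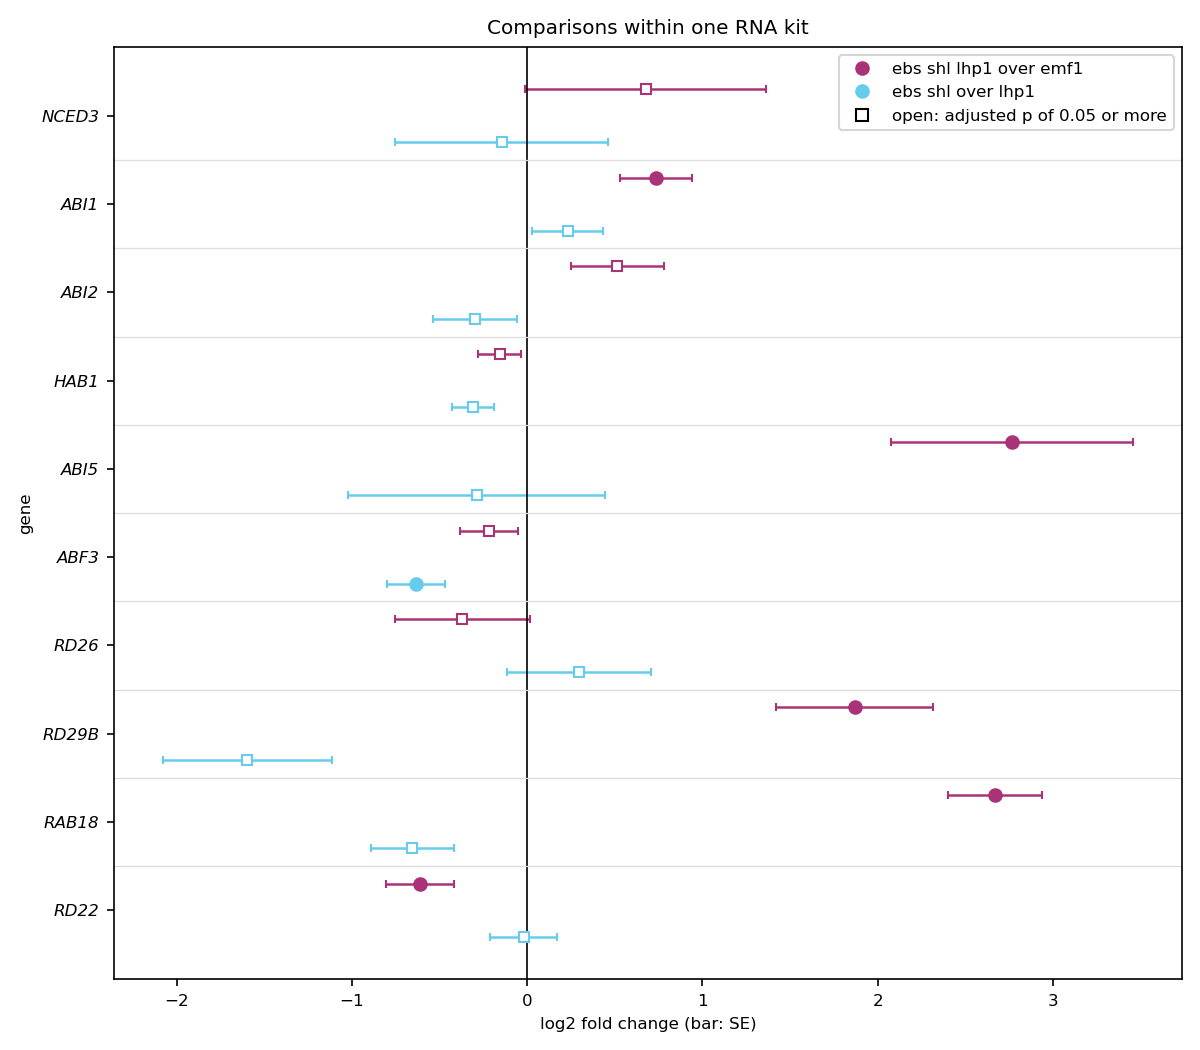
Log2 fold change of each gene within 1 RNA kit, for the triple mutant labelled ebs shl lhp1 over emf1 and the double mutant labelled ebs shl over lhp1, with SE bars; filled circles passed the adjusted p threshold of 0.05 and open squares did not. ABI5, RD29B and RAB18 lie between 1.87 and 2.77 in the ebs shl lhp1-labelled genotype over emf1, and ABF3 alone is filled in the ebs shl-labelled genotype over lhp1.

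Per kilobase of exon, levels can be compared between genes. RD22 was the most abundant member in every genotype, at 103 CPM per kb in lhp1, 101.5 in the ebs shl-labelled genotype, 131 in the ebs shl lhp1-labelled genotype and 200.5 in emf1, against 234 in WT. In WT ABF3 (29.5 CPM per kb), ABI1 (28.2) and HAB1 (20.2) followed, and the first 2 did not differ beyond their spread. RAB18 had rank 2 in lhp1 at 36.3 CPM per kb and rank 5 in WT at 11.8 CPM per kb. RD26 had rank 2 in emf1 at 49.7 CPM per kb and rank 6 in WT at 9.12 CPM per kb. ABI5 and RD29B were at 3.97 and 3.00 CPM per kb in the ebs shl lhp1-labelled genotype, against 0.348 and 0.377 CPM per kb in WT, where they were the lowest of the members.

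The rest of the pathway was read from 84 further genes in 8 groups, of which 68 passed the filter on low counts. In the ebs shl lhp1-labelled genotype 37 of 68 rose and 13 fell (54.4% and 19.1%, beside 34.6% and 35.7% of all tested loci), with a median log2 fold change of 0.86. In emf1 23 rose and 22 fell (33.8% and 32.4%, beside 30.7% and 33.9% of all loci), with a median of -0.07. With library totals 19 rose and 31 fell. The median was -0.14 when EM1, which had no count in either group, is left out and MFT is set to a floor of 3 counts over its group. Within a kit the ebs shl lhp1-labelled genotype exceeded emf1 in 34 of 68 genes and was lower in 7 (50% and 10.3%, beside 23.6% and 20.5% of all loci), with a median of 0.70. In the ebs shl-labelled genotype 2 rose and 4 fell (2.94% and 5.88%, beside 5.31% and 2.52% of all loci). When any 1 of its own or the WT libraries was left out, 2 to 3 were called in all. In lhp1 0 of 68 were called by edgeR, beside 1.31% of all loci, 11 had an unadjusted p under 0.05, and DESeq2 called 2. In the ebs shl-labelled genotype over lhp1, COR47 alone of the 68 was called, beside 5.06% of all loci. COR47 was at 196 CPM against 123 CPM (log2 0.68 ± 0.15, BH-adjusted p = 0.015 by edgeR). Its call was lost without lhp1 repeat 1 (0.056) or 2 (0.071) or repeat 3 of the ebs shl-labelled genotype (0.077). In this comparison the fit of the 2 genotypes alone called 6 pathway genes higher and 6 lower, and DESeq2 called 3 higher and 3 lower.

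**Figure D4:**
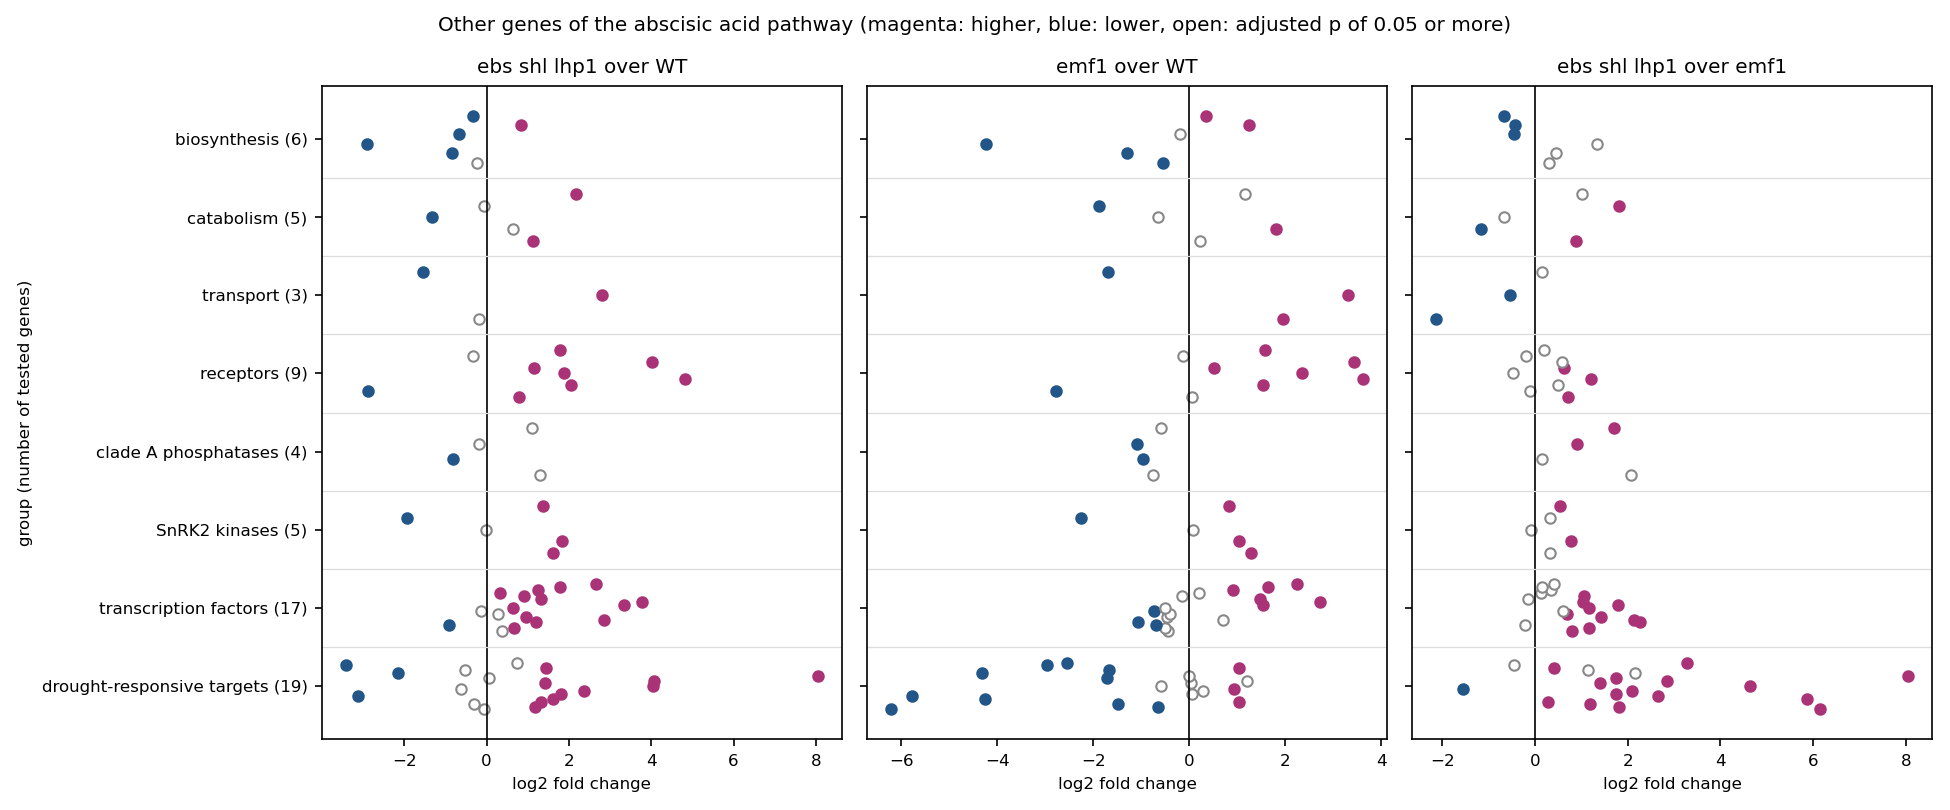
Log2 fold change of the 68 tested pathway genes by group, in the triple mutant labelled ebs shl lhp1 over WT, emf1 over WT and the ebs shl lhp1-labelled genotype over emf1; filled points passed the adjusted p threshold of 0.05, magenta when higher and blue when lower, and open points did not. The target group lies mostly right of 0 in the ebs shl lhp1-labelled genotype over emf1 (15 of 19 called higher, beside 23.6% of all loci). The points of EM1 (no count in WT or emf1) and MFT (no count in emf1) are fitted values and not bounds.

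Of 9 receptor genes tested, 7 rose and 1 fell in the ebs shl lhp1-labelled genotype, and 6 rose and 1 fell in emf1, beside 34.6% and 30.7% of all loci higher in these genotypes. Among those that rose in emf1 was PYL7 (log2 2.36 ± 0.26). It shares 571 of its 1240 exon bases with the tested opposite-strand gene AT4G01030, and the strand setting of the counting is not given. PYL6 was at 46.7, 60.6 and 29.7 CPM in the ebs shl lhp1-labelled genotype and 22.5, 13.2 and 23.9 CPM in emf1, against 2.48, 1.40 and 0.880 CPM in WT. PYL5 averaged 198 CPM in the ebs shl lhp1-labelled genotype and 133 CPM in emf1, against 12.3 CPM in WT, and PYL4 averaged 209.5 CPM in the ebs shl lhp1-labelled genotype, against 50.8 CPM in WT. The log2 fold change of PYL6 was 4.83 ± 0.38 in the ebs shl lhp1-labelled genotype (BH-adjusted p = 1.7e-07 by edgeR) and 3.63 ± 0.38 in emf1 (3.1e-06). PYL6 also rose in the ebs shl-labelled genotype, 7.70 CPM against 1.59 CPM in WT (2.27 ± 0.39, adjusted p = 0.0020). PYL2 fell in both strongly changed genotypes, with a log2 fold change of -2.88 in the ebs shl lhp1-labelled genotype and -2.77 in emf1. It is the receptor gene that fell and was named after its values were seen.

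Genes that make, break down or carry the hormone moved in both directions. Of 6 tested biosynthesis genes 1 rose and 4 fell in the ebs shl lhp1-labelled genotype, beside 34.6% and 35.7% of all loci. In emf1 2 rose and 3 fell, beside 30.7% and 33.9% of all loci. AAO3, the aldehyde oxidase of the last step, averaged 36.6 CPM in the ebs shl lhp1-labelled genotype and 49.1 CPM in emf1, against 20.7 CPM in WT (log2 0.82 ± 0.15 and 1.25 ± 0.15, BH-adjusted p = 0.00028 and 1.2e-05 by edgeR). BGLU18, a glucosidase that frees the hormone from its glucose ester, averaged 13.5 CPM in the ebs shl lhp1-labelled genotype and 5.16 CPM in emf1, against 101 CPM in WT (-2.92 ± 0.77 and -4.25 ± 0.84, adjusted p = 0.0039 and 0.00057). Without emf1 repeat 2 the second value was -7.22, and without repeat 1 of the ebs shl lhp1-labelled genotype the first was -4.04. Of 5 catabolism genes 2 rose and 1 fell in the ebs shl lhp1-labelled genotype, and 1 rose and 1 fell in emf1, beside the same shares of all loci. In the ebs shl lhp1-labelled genotype CYP707A3 (2.17 ± 0.56, adjusted p = 0.0034) and UGT71C5 (1.12 ± 0.11, 8.1e-07) rose and CYP707A4 fell (-1.32 ± 0.35, 0.0036). Without repeat 3 of that genotype CYP707A3 was at 0.94. CYP707A1, a hydroxylase that inactivates the hormone, was at 6.74 CPM in the ebs shl lhp1-labelled genotype and 1.91 CPM in emf1, against 7.13 CPM in WT, and it fell in emf1 (-1.88 ± 0.24, adjusted p = 1.4e-05). Its relative CYP707A2 rose in emf1 to 15.8 CPM, against 4.51 CPM in WT (1.81 ± 0.40, adjusted p = 0.0013). It also rose in the ebs shl-labelled genotype (1.58 ± 0.40, adjusted p = 0.026), but not without WT repeat 1 (0.071), 2 (0.10) or 3 (0.063) or without repeat 2 (0.11) or 3 (0.080) of that genotype.

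Of 3 transport genes 1 rose and 1 fell in the ebs shl lhp1-labelled genotype, beside 34.6% and 35.7% of all loci. In emf1 2 rose and 1 fell, beside 30.7% and 33.9% of all loci, and 1 rose and 1 fell with library totals. NPF4.6, which encodes an importer of the hormone, rose to 288 CPM in the ebs shl lhp1-labelled genotype and 416 CPM in emf1, against 41.6 CPM in WT. This was 2.79 ± 0.12 and 3.32 ± 0.13 on the log2 scale (BH-adjusted p = 5.1e-09 and 2.7e-09 by edgeR). ABCG25, an exporter gene, fell in both, to 5.53 CPM and 4.96 CPM, against 16.2 CPM in WT. Of 4 further phosphatase genes 0 rose and 1 fell in the ebs shl lhp1-labelled genotype, beside 34.6% and 35.7% of all loci. In emf1 0 rose and 2 fell, beside 30.7% and 33.9%. Set against emf1, 2 were higher and 0 lower in the ebs shl lhp1-labelled genotype, beside 23.6% and 20.5%. HAB2 fell in both strongly changed genotypes (-0.81 ± 0.12 in the ebs shl lhp1-labelled genotype, -0.97 ± 0.12 in emf1). PP2CA fell in emf1 (-1.09 ± 0.18), where it was at 26.5 CPM against 56.4 CPM in WT. Of 5 SnRK2 kinase genes 3 rose and 1 fell in each strongly changed genotype. Of all tested loci 34.6% rose and 35.7% fell in the ebs shl lhp1-labelled genotype, and 30.7% and 33.9% in emf1. SNRK2.2 was at 161 CPM in the ebs shl lhp1-labelled genotype and 93.4 CPM in emf1, against 45.1 CPM in WT (1.83 ± 0.11 and 1.05 ± 0.10, adjusted p = 1.8e-08 and 2.2e-06). OST1, the kinase gene of the guard cell response, differed from WT by -0.01 in the ebs shl lhp1-labelled genotype and 0.08 in emf1 on the log2 scale and passed in neither, and it was named after its values were seen.

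Of 17 other transcription factor genes 13 rose and 1 fell in the ebs shl lhp1-labelled genotype, beside 34.6% and 35.7% of all loci. In emf1 6 rose and 3 fell, beside 30.7% and 33.9% of all loci. With upper-quartile scaling or library totals in place of TMM 10 rose and 1 fell in the ebs shl lhp1-labelled genotype. Of all loci 5789 rose and 8707 fell there with upper-quartile scaling, and 5539 and 8944 with library totals. With library totals 6 rose and 9 fell in emf1, beside 3631 and 10031 of all loci. MYC2, on the list of these genes, shares 3241 of its 3289 exon bases with the tested opposite-strand gene AT1G32630. NAC055, a close relative of RD26, averaged 22.0 CPM in the ebs shl lhp1-labelled genotype and 10.7 CPM in emf1, against 1.60 CPM in WT (log2 3.77 ± 0.44 and 2.73 ± 0.44, BH-adjusted p = 4.7e-06 and 0.00012 by edgeR). NAC019, the other relative, rose in the ebs shl lhp1-labelled genotype (2.85 ± 0.49, adjusted p = 0.00015), where it exceeded emf1 by 2.14 ± 0.48 (0.0024). MYB2, which is known to bind the RD22 promoter, averaged 6.05 CPM in the ebs shl lhp1-labelled genotype, against 0.597 CPM in WT (3.33 ± 0.46, adjusted p = 2.2e-05). ABF1 was at 9.38 CPM in the ebs shl lhp1-labelled genotype, against 1.96 CPM in emf1 (2.26 ± 0.20, adjusted p = 2.5e-06), but it overlaps a tested opposite-strand gene by 123 exon bases. ABF4, a relative of ABF3, fell in the ebs shl-labelled genotype to 25.3 CPM, against 34.1 CPM in WT (-0.43 ± 0.12, adjusted p = 0.048), and this missed the threshold in 9 of 13 alternative fits, among them those without WT repeat 2 (0.20) or 3 (0.14) and without repeat 1 (0.057), 2 (0.15) or 3 (0.19) of the ebs shl-labelled genotype.

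Drought-responsive target genes moved apart between the strongly changed genotypes. Of 19 tested, 10 rose and 3 fell in the ebs shl lhp1-labelled genotype, beside 34.6% and 35.7% of all loci. In emf1 3 rose and 10 fell, beside 30.7% and 33.9%. Set against emf1, 15 were higher and 1 lower in the ebs shl lhp1-labelled genotype, beside 23.6% and 20.5% of all loci. The median log2 difference between these 2 genotypes was 1.81 for the 19 genes, beside 0.05 for all tested loci. COR47, a dehydrin gene like RAB18, was at 442, 317 and 418 CPM in the ebs shl lhp1-labelled genotype and 99.3, 110 and 126 CPM in emf1, a log2 difference of 1.81 ± 0.15 (BH-adjusted p = 1.5e-06 by edgeR). RD20, a caleosin gene, was at 38.2, 21.7 and 17.7 CPM in the ebs shl lhp1-labelled genotype and 3.71, 10.2 and 4.18 CPM in emf1 (2.08 ± 0.39, adjusted p = 0.00068, and 2.71 without emf1 repeat 2). Neither gene's groups overlapped. LTI30, another dehydrin gene, fell in emf1 to 5.72 CPM, against 18.8 CPM in WT (-1.71 ± 0.28, adjusted p = 0.00011). The group also holds genes better known from seeds. EM1, a late embryogenesis gene, had 84 counts over the 3 ebs shl lhp1-labelled genotype libraries, against 0 counts in emf1 and 0 counts in WT, which is at least 37.5-fold higher than WT at a floor of 3 counts over the group, and it was named after its values were seen.

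RD29A, the locus next to RD29B on chromosome 5, did not follow it. RD29A was at 13.4, 1.80 and 18.9 CPM in the ebs shl lhp1-labelled genotype, 9.65, 30.1 and 7.65 CPM in emf1, 22.7, 37.2 and 40.1 CPM in the ebs shl-labelled genotype and 56.7, 31.7 and 40.2 CPM in lhp1, against 117, 116 and 141 CPM in WT. All 12 mutant libraries lay below all 3 WT libraries. Its log2 fold change was -3.42 ± 0.59 in the ebs shl lhp1-labelled genotype (BH-adjusted p = 0.00015 by edgeR), where RD29B rose. In emf1 the log2 fold change was -2.97 ± 0.57 (adjusted p = 0.00046). Without emf1 repeat 2 the emf1 value was -3.83, and without repeat 3 of the ebs shl lhp1-labelled genotype the value there was -4.03. In the ebs shl-labelled genotype it was -1.91 ± 0.54 (adjusted p = 0.045), which missed the threshold when any 1 of the 6 libraries was left out (0.076 to 0.17), and in lhp1 -1.54 did not pass.

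Markers of other tissues moved in the strongly changed genotypes, and some also moved in the ebs shl-labelled genotype. Summed over 6 guard cell genes, the level was 9.49 to 19.2 CPM in the ebs shl lhp1-labelled genotype and 17.1 to 20.9 CPM in emf1, against 58.6 to 66.6 CPM in WT. Of these genes 6 of 6 fell in each, beside 35.7% and 33.9% of all loci. Summed over 9 root genes the level was 31.8 to 39.8 CPM in the ebs shl lhp1-labelled genotype and 41.3 to 51.9 CPM in emf1, where IRT1 was at 0, against 96.3 to 140.5 CPM in WT. Here 9 of 9 and 8 of 9 genes fell, beside the same shares of all loci. Summed over 10 seed genes the level was 0.436 to 3.54 CPM in lhp1, 28.3 to 30.2 CPM in the ebs shl-labelled genotype, 84.7 to 113 CPM in the ebs shl lhp1-labelled genotype and 49.0 to 69.0 CPM in emf1, against 0.181 to 0.794 CPM in WT. Of these seed genes 2 of 10 passed the filter. The storage protein genes SESA1, SESA2, CRU2 and CRU3 were at 0 in WT and also in the ebs shl-labelled genotype. SESA1 and SESA2 were at 0 in emf1, CRU2 in the ebs shl lhp1-labelled genotype, and SESA2, CRU2 and CRU3 in lhp1. Summed over 4 leaf genes the level was 28830 to 32520 CPM in lhp1, 30310 to 36260 CPM in the ebs shl-labelled genotype, 29380 to 35410 CPM in the ebs shl lhp1-labelled genotype and 45910 to 48810 CPM in emf1, against 35080 to 36830 CPM in WT. In the comparison within a kit, 4 of 4 leaf genes were lower in the ebs shl lhp1-labelled genotype than in emf1, beside 20.5% of all loci. The part of these tissues in the abscisic acid gene results was not tested. In lhp1 the guard cell sum was 53.4 to 58.5 CPM and the root sum 106 to 119 CPM. There 1 of 6 and 0 of 9 genes were called, beside 1.31% of all loci. The lhp1 leaf sum lay below that of every WT library, with 0 of 4 genes called. In the ebs shl-labelled genotype the guard cell sum was 55.4 to 65.9 CPM and the root sum 106 to 119 CPM. Of 6 guard cell genes 1 rose and 2 fell there, beside 5.31% and 2.52% of all loci. Of 9 root genes 0 were called, of 4 leaf genes 1 fell, and of 2 tested seed genes 2 rose, beside the same shares.

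The genes of nearest pattern to each called member were found as those with the smallest root mean square difference of log2 CPM over the 15 libraries, each gene centred on its own mean. For RD26 they were CYP71B18 and RMA2, both at 0.25, beside an SD of 1.31 for RD26 itself. CYP71B18 averaged 59.7 CPM in the ebs shl lhp1-labelled genotype and 61.0 CPM in emf1, against 10.9 CPM in WT. For RAB18 they were AT1G34060 (0.32) and AT1G66800 (0.42), beside an SD of 1.06. AT1G66800 averaged 8.79 CPM in lhp1, 7.81 CPM in the ebs shl-labelled genotype, 11.7 CPM in the ebs shl lhp1-labelled genotype and 1.42 CPM in emf1, against 3.20 CPM in WT, the same order as RAB18 save that the ebs shl lhp1-labelled genotype led. For RD22 they were EFE (0.24) and AT5G42360 (0.26), beside an SD of 0.54, and for ABF3 AT4G30570 (0.23) and AOS (0.24), beside an SD of 0.39. For ABI5 (HB21, 0.64) and RD29B (AT4G33310, 0.59) the nearest genes were farther off, beside SDs of 1.21 and 1.16.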

How the data were processed

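The authors deposited whole-number counts of reads per annotated locus, 1 table per library. TopHat2 2.1.1, HTSeq and edgeR with the TAIR10 build are named in the submitters' processing notes, without the strand setting of the counting, and the libraries were made with the KAPA stranded mRNA kit, per the labels. The 10 members and the lists of pathway and tissue genes were chosen with earlier results of these data known. The counts were fitted with edgeR 4.0.16 under R 4.3.3. The filterByExpr function kept 20477 of 33602 loci, TMM factors ran from 0.817 to 1.146, and the 15 libraries were fitted together with 1 mean per genotype and 1 spread per gene (common biological coefficient of variation 16.4%). For 6 comparisons the quasi-likelihood F test was adjusted by the Benjamini-Hochberg method over all tested loci, at a threshold of 0.05. The SE is the log2 fold change over the square root of its F value. Chi-square over its degrees of freedom was 4.41 to 25.6 between repeats of a genotype, above counting noise, so each library was counted on its own. The p-values weigh a difference of means against the spread between these repeats. That spread was taken as 1 value per gene over the 5 genotypes, although the repeats of some genotypes varied more than others. Pathway genes were named by rule: up to 3 called genes per list and comparison with the largest change, a mean of at least 5 CPM in the higher genotype and groups that do not overlap. For nearest patterns a prior count of 2 was used. The 8 alternatives were 3 other scalings, no filter, DESeq2 1.42.0, a fit of the 2 genotypes compared, a replicate block and leaving out each library. The test was tried on simulated data first, with few loci changed, evenly up and down, and 1 spread for all genes. That setting cannot check scaling or false calls in comparisons where most loci were called. Of the tested loci 20457 matched the TAIR10.1 annotation, from which exon lengths and sequences come, and no member had a near-identical copy (BLAST 2.17.0, 95% identity over 50% of the length).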

Additional observations from a re-analysis of the deposited data

How the results depend on the processing

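Of 23 member calls, 17 held under every alternative, and the 6 that did not were RAB18 in the ebs shl-labelled genotype, ABI1 in the ebs shl lhp1-labelled genotype against WT and against emf1, ABF3 in emf1 and in the ebs shl-labelled genotype against lhp1, and RD22 in the ebs shl lhp1-labelled genotype against emf1. Under library totals alone emf1 against WT had 8 members called, 1 higher and 7 lower, where TMM scaling gave 4, and the median of all loci moved by -0.33 there, by -0.21 in the ebs shl lhp1-labelled genotype against WT and by 0.12 between these genotypes. Upper-quartile scaling moved it by -0.18 in the ebs shl lhp1-labelled genotype and -0.17 in emf1. All-locus splits of higher and lower calls were 5789 and 8707 (upper quartile) and 5539 and 8944 (totals) beside 7078 and 7308 in the ebs shl lhp1-labelled genotype, 4796 and 8398 and 3631 and 10031 beside 6284 and 6947 in emf1, and 6077 and 3115 (totals) beside 4829 and 4193 between them. The ebs shl-labelled genotype against lhp1 had 1 member called, 2 with DESeq2 and 2 with the fit of these genotypes alone, and 0 to 0 when each library was left out. The ebs shl lhp1-labelled genotype against emf1 had 5, and 3 with the fit of these genotypes alone. Over all loci, lhp1 had 269 calls (524 with DESeq2, 471 with its own fit, 144 to 209 with a library left out), the ebs shl-labelled genotype 1604 (950 to 1119 with a library left out) and the ebs shl-labelled genotype against lhp1 1036 (2274 with its own fit, 564 to 732 with a library left out). Pathway calls in emf1 were 19 higher and 31 lower under totals. Against WT the ebs shl-labelled genotype had 6, with 12 in the fit of these genotypes alone and 3 under totals or the block.

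Deviations of same-numbered libraries correlated at -0.33 to 0.17, and those of libraries with different numbers at -0.33 to 0.29. No pairing by number was seen. Deviations from a mean of 3 repeats sum to 0, so these values cannot decide whether the numbers pair the samples. With the replicate block 2 members were called in lhp1, 2 in the ebs shl-labelled genotype, 7 in the ebs shl lhp1-labelled genotype and 3 in emf1, 5 in the ebs shl lhp1-labelled genotype against emf1 and 0 in the ebs shl-labelled genotype against lhp1.

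Results whose sign turned were called in no fit. ABI2 in lhp1 was 0.0471 under library totals. With 1 library left out, log2 changes in lhp1 ran from -0.32 to 0.33 (NCED3), -0.10 to 0.0376 (ABI2) and -0.89 to 0.0408 (RD26). In the ebs shl-labelled genotype they ran from -0.63 to 0.19 (NCED3), -0.0259 to 0.19 (ABI1), -0.37 to 0.23 (RD26) and -0.23 to 0.60 (RD29B), and in emf1 from -0.11 to 0.067 (HAB1). In the ebs shl lhp1-labelled genotype against emf1 NCED3 ran from -0.0207 to 1.22, and in the ebs shl-labelled genotype against lhp1 NCED3 from -0.53 to 0.084, RD26 from -0.0903 to 0.90 and RD22 from -0.0682 to 0.0416. The causes were not tested. Depth limits ABI5 and RD29B, at 36 and 40 counts in WT. DESeq2 gave no adjusted p for BGLU18.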

Other observations

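The spread between repeats differed among the 10 genes and among the genotypes. In the ebs shl lhp1-labelled genotype the coefficient of variation over 3 repeats was 105% for ABI5, 84.2% for NCED3, 46.0% for RD29B and 34.8% for RD22, against 63.6%, 44.9%, 16.8% and 4.08% in WT for the same genes in that order. RD26 varied by 61.8% in lhp1 and 40.6% in the ebs shl-labelled genotype, against 43.7% in WT, but by 17.5% in the ebs shl lhp1-labelled genotype and 11.7% in emf1. These spreads were not tested.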
